A study of Homo sapiens with 12 samples.

Results

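MCF-10A cells, a non-malignant human breast epithelial line, were compared after transit of 5 µm constrictions with control cells that had not transited, and 64 cytokine, humoral and inflammatory genes are described here out of the 2680 genes listed for that comparison. The genes were selected on this same comparison: they are the listed genes that belong to any of 3 gene ontology terms, cytokine activity, humoral immune response and regulation of inflammatory response. The terms hold 67 listed genes together, of which 3 were left out by name (*HIST1H2BG*, *KLK7* and *KRT1*). Over all 3 cell lines of the series, 3090 genes are listed. Listed genes are those that the paper reports as differentially expressed in the comparison of their line. Shares over all listed genes therefore rest on the same choice and are no unselected background. Of the 64 members, 24 belong to cytokine activity, 21 to humoral immune response and 34 to regulation of inflammatory response, with 13 in 2 of the terms and *TNF* in all 3. Because the read counts of these libraries chose the members, the difference between constriction and control is described below, and the counts of calls among them are no independent test of it.

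RNA from 12 libraries was sequenced, 2 of constriction and 2 of control cells in each of 3 lines: MCF-10A, MDA-MB-231, which is a breast cancer line, and LM2, a derivative of it. Cells were driven through channels 5 µm wide, 5 µm high and 150 µm long at pressures of 7 to 33 cmH2O and collected after transit. The paper describes the sequenced cells as having just transited, and no recovery period is described for them. MCF-10A was grown in both groups with horse serum, insulin, epidermal growth factor, cholera toxin and hydrocortisone, the last a steroid that represses inflammatory genes. The MCF-10A constriction libraries held 29978695 and 35494737 reads in replicates 1 and 2, and the control libraries 36123663 and 46436989. A normalised count is a read count divided by the size factor of its library, and FPKM is a read count scaled by gene length and library size.

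Cytokines are small secreted proteins that cells use to call and instruct immune cells, and chemokines are those that guide cell migration. Epithelial cells make many of them, together with antimicrobial proteins and complement components that act on microbes outside the cell, which is the humoral arm of innate defence. Transcription of these genes is commonly driven by NF-κB, interferon regulatory factors and STAT proteins, which the study also stained in cells. The staining was not used here.

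The control libraries stood apart from each other. The members summed to 5693 reads in control replicate 1 and 1226 in control replicate 2. The ratio of the normalised sums was 5.76, against 1.42 for the 2616 other listed genes. That ratio was 13.8 over the 9 members with a control mean of at least 100, and 1.51 over the 20 members with the lowest control mean. Per gene, the median ratio was 2.86 in the members and 1.13 in the other listed genes. In 27 of the 64 members (42.2%) the control libraries lay over 5-fold apart, against 311 of the 2616 other listed genes (11.9%). Sets of listed genes more like the members lay between these shares. Of the members 63 are protein-coding, and over all 1189 listed protein-coding genes, members included, the share was 18.3% and the ratio of sums 1.71. Over the 1081 of these without reads after transit the values were 18.7% and 2.23. Among listed genes with a control mean of at least 100 the share was 44 of 126 (34.9%), and 8 of the 9 members at that level were among the 44. Replicate 1 was the higher in all 27 members, and in 52 members (81.25%) over the whole set. Over all listed genes it was the higher in 257 of the 338 that lay over 5-fold apart, and in 55.6% of the whole list. Among listed genes with a control mean of at least 100 it was the higher in 43 of the 44, and in 81.0% of the 126. In 9 members control replicate 2 held at most 3 reads. Control replicate 1 came from a full culture flask, with no such note for control replicate 2. Cell concentration and RNA amount were also far higher in control replicate 1 than in control replicate 2. Both constriction samples had a lower cell concentration than either control sample, and more RNA than control replicate 2. The part of flask, cell number and RNA amount in the result was not tested.

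**Figure D1:**
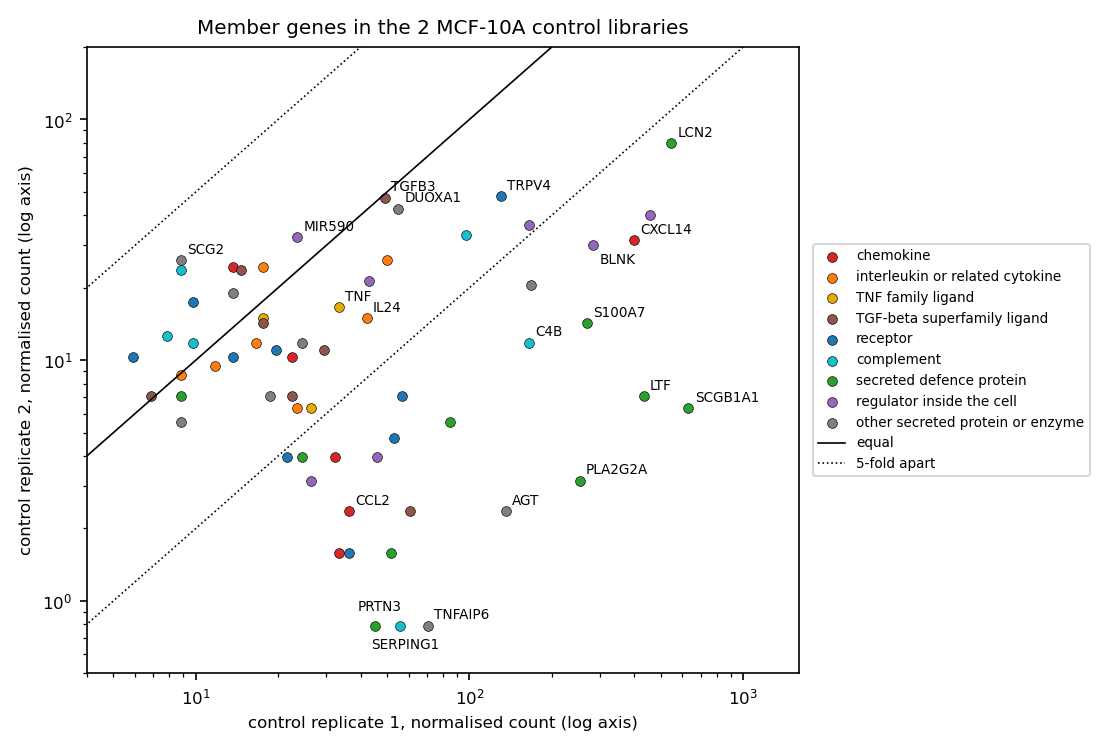
Normalised counts of the 64 members in control replicate 1 (horizontal) and control replicate 2 (vertical), both on log axes, coloured by role. Points under the lower dotted line are the 27 members with over 5 times more in replicate 1; no point lies above the upper dotted line.

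After transit, 63 of the 64 members had 0 reads in both MCF-10A libraries. The same held for 2402 of all 2680 listed genes (89.6%), and since the members were chosen on this comparison nothing is read from the difference. The exception was *C4B*, with 1 read in each constriction library. Both constriction libraries lay below both control libraries for 64 of 64 members and for 94.5% of the listed genes, an order that the choice of the members bears on. In control cells the mean normalised count of a member ran from 6.98 (*BMP8A*) to 319 (*SCGB1A1*), with a median of 19.8, against a median of 16.6 over all listed genes. Of 9 members with a control mean of at least 100, all 9 had 0 reads after transit, as did 76 of the 126 listed genes at that level. In bulk RNA, fewer cells making a transcript and less of it per cell cannot be told apart.

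**Figure D2:**
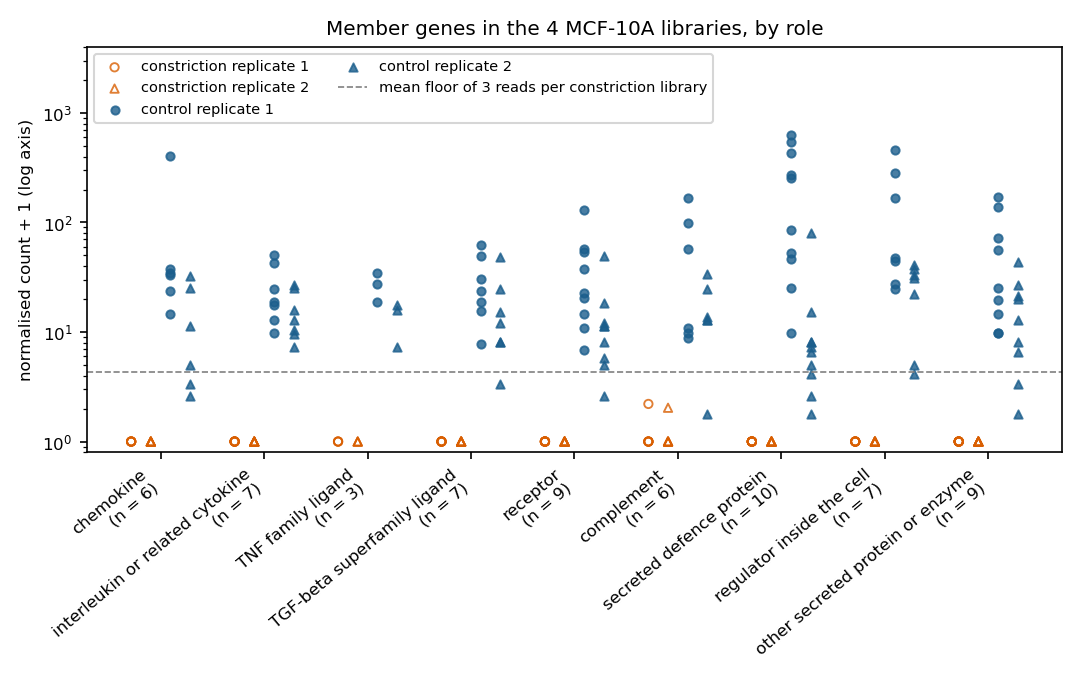
Normalised count plus 1 on a log axis for each of the 64 members in the 4 MCF-10A libraries, grouped by role, with open orange symbols for constriction, filled blue symbols for control, circles for replicate 1 and triangles for replicate 2. Constriction symbols sit at a count of 0 except for *C4B*, and many control symbols of replicate 2 lie near the dashed line, the mean floor of 3 reads per constriction library.

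A count of 0 allows up to 3 reads, a floor that equals a normalised count of 3.62 in constriction replicate 1 and 3.11 in constriction replicate 2. These limits cover counting error only, since no molecular identifiers are described. A fold against 0 is therefore a lower bound, taken here as the control mean over the mean of both floors. The bounds of the 63 members ran from at least 2.08-fold to at least 94.9-fold lower, with a median of 5.74. From control replicate 2 alone, with control replicate 1 left out, that median was 3.05, and from control replicate 1 alone it was 9.61.

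With edgeR's quasi-likelihood test and Benjamini-Hochberg adjustment over 58780 gene models, 0 of the 64 members and 0 of the 2680 listed genes (0%) had an adjusted p under 0.05, the threshold for a call. At an unadjusted p under 0.05 there were 53 members and 2412 listed genes. The number depended on the tool: DESeq2 called 41 members and 1469 listed genes, limma called 15 and 1015 with a pseudocount of 1 and 0 of both with a pseudocount of 10, and edgeR with its legacy dispersion estimate called 53 and 2329. Nothing is read from these counts about the members.

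The spread between the control libraries differed among the roles, which were assigned after the values were seen, and among levels of the control mean. Of the 10 secreted defence proteins, 9 lay over 5-fold apart between the control libraries, and their normalised sum was 18.1 times higher in control replicate 1. Of the 7 interleukins and related cytokines 0 did, of the 3 ligands of the TNF family 0 and of the 7 ligands of the TGF-β superfamily 1. The ratios of sums in these 3 groups were 1.67, 2.04 and 1.78. By term, the control libraries were over 5-fold apart for 4 of the 24 cytokine genes, for 14 of the 21 humoral genes and for 14 of the 34 genes of inflammatory regulation (41.2%), a share near that of all members. By level, the share was 65% among the members ranked 1 to 20 by control mean. It was 45.8% at ranks 21 to 44 and 15% at ranks 45 to 64. The median control mean was 86.6 in the secreted defence proteins and 14.9 in the interleukins and related cytokines. The part of level in the differences between roles was not tested. All of these values describe a pair of libraries, without a test.

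**Figure D3:**
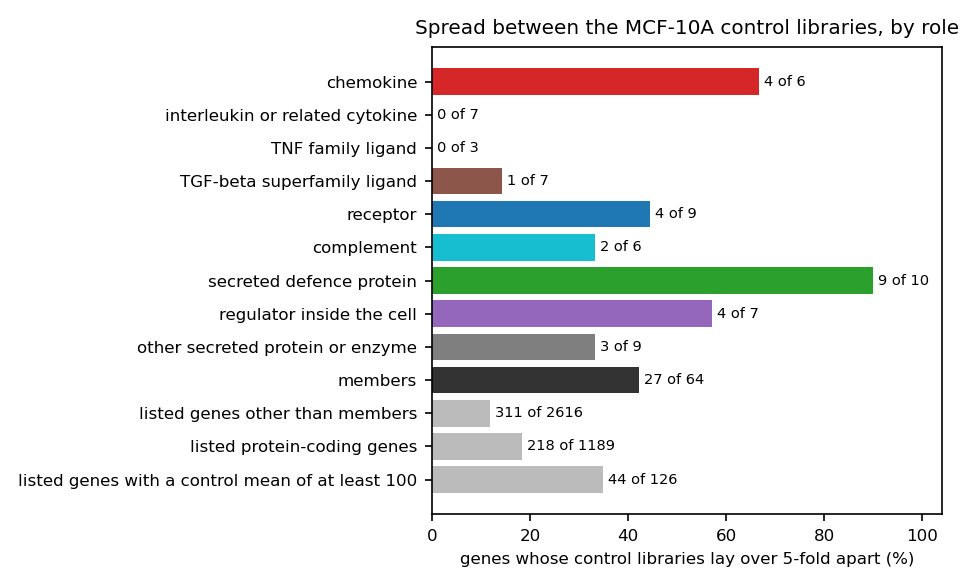
Share of genes, in percent, whose control libraries lay over 5-fold apart, for each role, for all 64 members, for the 2616 other listed genes and, members included, for listed protein-coding genes and listed genes with a control mean of at least 100, with the counts beside the bars. The bar of the secreted defence proteins is the longest (9 of 10) and those of the interleukins and TNF ligands are at 0.

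The secreted defence proteins included the 2 members with the highest normalised count in control cells. *SCGB1A1*, the anti-inflammatory secretoglobin of airway epithelium, on chromosome 11 from 62405103 to 62423195 (GRCh38), had no reads in either constriction library, against 645 and 8 in control replicates 1 and 2. Its control mean of 319 ± 442 (SD, n = 2) therefore rested on replicate 1: the bound was at least 94.9-fold lower with both control libraries and at least 1.88-fold with replicate 2 alone. It shares 16.5% of its exon bases with an antisense gene, so part of its reads could be of that gene. *LCN2*, lipocalin 2, which withholds iron from bacteria by binding their siderophores, lies on chromosome 9 from 128149071 to 128153455 and had 557 and 101 control reads. It was at least 93.0-fold lower, and at least 23.7-fold from replicate 2 alone, so that both control libraries lay far above the floor.

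*LTF*, lactoferrin, another iron-binding protein of milk and granulocytes, had 443 and 9 control reads. *S100A7*, psoriasin, an antimicrobial protein of skin and breast epithelium, had 274 and 18. *PLA2G2A*, a secreted phospholipase that attacks bacterial membranes, had 258 and 4. All 3 were high in control replicate 1, low in control replicate 2 and at 0 in both constriction libraries.

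Other genes of this group had lower counts and showed the same order of the control libraries. *PGLYRP3*, which binds bacterial peptidoglycan, had 87 and 7 control reads. *S100A12*, a calcium-binding protein of granulocytes, had 53 and 2. *PRTN3*, the granule protease proteinase 3, had 46 and 1, and *SPON2*, an extracellular matrix protein that takes part in the recognition of microbes, had 25 and 5. *PGLYRP1*, a relative of *PGLYRP3*, differed from the rest of the group with 9 and 9 control reads. Per length, 7 of these 10 genes had a control mean over 1 FPKM, led by *SCGB1A1* (15.5 ± 21.5, SD, n = 2) and *S100A7* (7.44 ± 9.50). That count rested on control replicate 1: in control replicate 2 alone, *LCN2* was the 1 gene of the 10 over 1 FPKM, at 1.36, with *SCGB1A1* at 0.296 and *S100A7* at 0.723.

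*PGLYRP3*, *S100A12* and *S100A7* lie near each other on chromosome 1, in the cluster of epidermal differentiation genes, with 63.0 kb between the first and the second and 82.1 kb between the second and the third. All 3 were over 5 times higher in control replicate 1 than in replicate 2. *TREM2* and *TREM1* are 105 kb apart on chromosome 6 and also shared this order. Other neighbours did not: of *MEFV* and *NLRC3*, 282 kb apart on chromosome 16, and of *TNF* and *C4B*, 436 kb apart on chromosome 6, 1 gene each was over 5-fold apart between the control libraries, and of *IL1R2* and *IL1RL1*, 283 kb apart on chromosome 2, and *IL24* and *CR2*, 550 kb apart on chromosome 1, neither was.

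Among the 6 chemokines, *CXCL14*, a chemokine made constitutively by epithelia, had the highest count, on chromosome 5 from 135570679 to 135579279. No read was counted in the constriction libraries, against 409 and 40 in the control libraries, a normalised count of 216 ± 261 (SD, n = 2). It was at least 64.3-fold lower, or at least 9.40-fold from control replicate 2 alone. *CCL2*, which attracts monocytes, had 37 and 3 control reads. *CXCL17*, a mucosal chemokine, had 34 and 2. The control libraries of these 3 genes differed more than 5-fold, with replicate 1 higher in each.

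*CXCL10* and *CXCL11*, the interferon-induced ligands of the receptor CXCR3, are neighbours on chromosome 4 with 10.2 kb between them. *CXCL10* had 33 and 5 control reads and *CXCL11* 23 and 13, so the neighbours differed in whether the control libraries were far apart. *CKLF*, chemokine-like factor, had the opposite order with 14 and 31 reads. It shares 58.7% of its exon bases with the readthrough gene *CKLF-CMTM1* on the same strand, so its reads are uncertain.

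The promoters of *CXCL10* and *CXCL11* are shown because they held the most motif matches among the members, 3 in a window. *TREM1*, a receptor that amplifies inflammatory responses of myeloid cells, was level with *ACP5* and *IL12A* at 2 matches and is shown as the one of them with the highest control mean. Sequences are from RefSeq (GRCh38.p14), read 5′ to 3′ on the strand of the gene, and end at the base before the start annotated there. Capitals mark matches to the NF-κB consensus, to the core GAAANNGAA of the interferon-stimulated response element and to the core TTCNNNGAA of the gamma-activated sequence, each searched on both strands.
CXCL10, chr4:76023498-76023747, minus strand: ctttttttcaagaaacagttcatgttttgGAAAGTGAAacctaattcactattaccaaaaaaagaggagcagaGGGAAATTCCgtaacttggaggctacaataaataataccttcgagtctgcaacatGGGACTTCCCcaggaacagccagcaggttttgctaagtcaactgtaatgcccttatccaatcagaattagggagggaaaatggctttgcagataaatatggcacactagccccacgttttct
CXCL11, chr4:76036071-76036320, minus strand: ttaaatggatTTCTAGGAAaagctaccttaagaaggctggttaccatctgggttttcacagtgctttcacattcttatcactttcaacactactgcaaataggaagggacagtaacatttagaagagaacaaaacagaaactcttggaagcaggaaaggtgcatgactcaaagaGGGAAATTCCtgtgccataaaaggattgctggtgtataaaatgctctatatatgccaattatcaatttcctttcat
TREM1, chr6:41286683-41286932, minus strand: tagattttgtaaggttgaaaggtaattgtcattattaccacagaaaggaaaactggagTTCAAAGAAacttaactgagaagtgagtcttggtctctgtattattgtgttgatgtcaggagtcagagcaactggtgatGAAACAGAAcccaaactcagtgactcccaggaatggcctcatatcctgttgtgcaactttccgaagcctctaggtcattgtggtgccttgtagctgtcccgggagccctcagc

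In *CXCL10* the matches were an interferon-stimulated core whose first base lies 221 bases before the start and 2 NF-κB matches, 177 and 122 bases before it. *CXCL11* held a gamma-activated core 240 bases and an NF-κB match 76 bases before the start, with another gamma-activated core after the start. *TREM1* held a gamma-activated core 192 bases and an interferon-stimulated core 113 bases before the start. Over the members, 47 were in the promoter table, whose windows take in 250 bases before and 50 after a start, and 17 were not. A gene counted as holding a motif if any of its windows matched, and the 47 members had 69 windows. The shares were not adjusted for the number of windows per gene. The NF-κB consensus was in 9 of the 47 (19.1%) and in 7.09% of all 27305 genes of the table. The interferon-stimulated core was in 8 of the 47 (17.0%) and in 9.86% of all genes, and the gamma-activated core in 6 (12.8%) and in 9.38%. A match describes letters in a window and says nothing about binding of the factor in these cells.

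**Figure D4:**
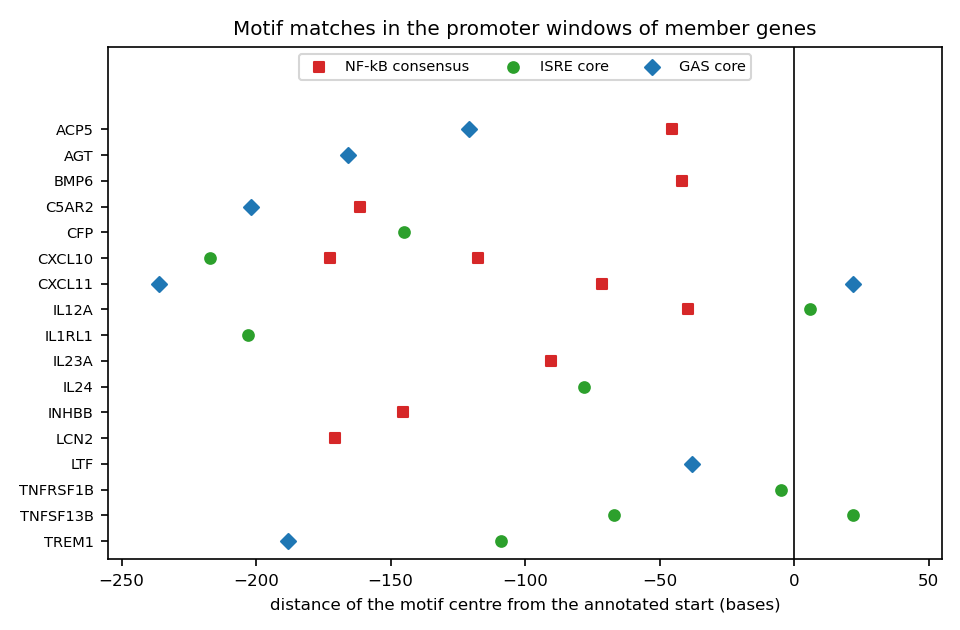
Places of the motif matches in the promoter windows of the 17 members that held any, as the distance of the motif centre from the annotated start in bases, with squares for the NF-κB consensus, circles for the interferon-stimulated core and diamonds for the gamma-activated core. *CXCL10* and *CXCL11* have 3 matches each, and the 2 matches of *C5AR2* lie in windows of different starts. The 2 circles of *TNFSF13B* are the same site seen from different starts.

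Mean normalised counts of the 7 interleukins and related cytokines ran from 8.75 to 38.0 in control cells. Their median was 14.9, against 19.8 over all members, and their control libraries lay within 5-fold of each other. *CTF1*, cardiotrophin 1, a cytokine of the IL-6 family, had the highest count with 51 and 33 control reads, a normalised count of 38.0 ± 16.9 (SD, n = 2). *IL24*, a member of the IL-10 family, had 43 and 19. *IL12A* and *IL23A*, subunits that each pair with the same partner to form IL-12 and IL-23, had 18 and 31 reads and 17 and 15 reads. *IL34*, a ligand of the receptor CSF1R, *IL36G*, an epithelial cytokine of the IL-1 family, and *IFNE*, an epithelial type I interferon, had between 8 and 24 reads in each control library. All 7 had 0 reads in both constriction libraries, and control replicate 1 was the higher in 6 of them after normalisation.

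*TNF* was at 0 in both constriction libraries and had 34 and 21 reads in the control libraries, a normalised count of 24.9 ± 11.8 (SD, n = 2). It was at least 7.42-fold lower, or at least 4.93-fold from control replicate 2 alone. *TNFSF4*, the ligand of OX40, had 18 and 19 control reads, and *TNFSF13B*, the B cell survival factor BAFF, had 27 and 8. All 3 were at 0 in both constriction libraries, as were 89.6% of the listed genes.

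Of the TGF-β superfamily, *TGFB3*, a TGF-β ligand, had the highest count and close control libraries, with 50 and 60 control reads and a normalised count of 48.2 ± 1.11 (SD, n = 2). It was at least 14.3-fold lower, and at least 14.1-fold from control replicate 2 alone, so its bound did not rest on 1 control library. *INHBB*, the βB subunit of inhibin and activin, had control libraries far apart, with 62 and 3 reads. *BMP8A*, a bone morphogenetic protein, had the lowest normalised count of all members, 7 and 9 control reads, and a bound of at least 2.08-fold. The other 4, the bone morphogenetic proteins *BMP6* and *BMP7*, the oocyte growth factor *GDF9* and *INHA*, the α subunit of inhibin, had between 9 and 30 reads in each control library and 0 after transit.

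The receptors included *TRPV4*, a cation channel opened by mechanical and osmotic stimuli, on chromosome 12 from 109783085 to 109833401. Its reads numbered 133 and 61 in the control libraries and 0 in both constriction libraries, a control normalised count of 89.2 ± 58.0 (SD, n = 2). It was at least 26.5-fold lower, or at least 14.3-fold from control replicate 2 alone. *TREM1* had 58 and 9 control reads, and *TREM2*, a lipid-sensing receptor of myeloid cells, had 54 and 6. *TNFRSF1B*, the TNF receptor 2, had 37 and 2, and *FFAR2*, which binds short-chain fatty acids, had 22 and 5. These last 4 were over 5-fold apart between the control libraries.

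*IL1R2*, a decoy receptor that binds IL-1 without signalling, *IL1RL1*, the receptor of IL-33, *TNFRSF11B*, the decoy receptor osteoprotegerin, and *CALCRL*, the calcitonin receptor-like receptor, had between 6 and 22 reads in each control library. *IL1R2* and *TNFRSF11B*, both decoys, were higher in control replicate 2, at 6 and 13 reads and at 10 and 22 reads. All 4 had 0 reads after transit.

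*C4B*, a component of the classical complement pathway, was the member with reads after transit, 1 and 1, against 169 and 15 in control cells. The ratio of constriction to control was 0.0138 (95% exact counting interval 0.00166 to 0.0507, from 2 and 184 reads). Without control replicate 1 the ratio was 0.0940 (0.0104 to 0.404, from 2 and 15 reads), outside the first interval, which covers counting error only and not the difference between the control libraries. On the log2 scale with a pseudocount of 1 it fell by 5.40, and by 2.60 without control replicate 1. *C4B* lies on chromosome 6 from 32014795 to 32035418 and has a near-identical paralogue, so its reads are uncertain. *SERPING1*, the C1 inhibitor, had 57 and 1 control reads and 0 after transit. *CR2*, the complement receptor 2 of B cells, *C8G*, a subunit of the membrane attack complex, and *CFP*, properdin, were low and higher in control replicate 2, with 9 and 30, 10 and 15, and 8 and 16 reads.

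*C5AR2*, a second receptor for the complement fragment C5a, was the only member listed in another line. In MCF-10A it had 99 and 42 reads in the control libraries and 0 in both constriction libraries, a control normalised count of 65.0 ± 45.1 (SD, n = 2), and was at least 19.4-fold lower, or at least 9.87-fold from control replicate 2 alone. For LM2 only 97 genes are listed, chosen on the comparison within LM2 itself. The values of *C5AR2* there are therefore a description and no independent support. In LM2 it had 13 and 11 reads in the control libraries and 0 in both constriction libraries, a control normalised count of 11.3 ± 0.252 (SD, n = 2), and was at least 3.56-fold lower. Both constriction libraries lay below both control libraries there, as for 40.2% of the 97 listed LM2 genes. It was not called in LM2 by edgeR's quasi-likelihood test (adjusted p = 1, unadjusted p = 0.0303), and 0 of the 97 listed genes were (0%), with 46 at an unadjusted p under 0.05. DESeq2 and limma with a pseudocount of 1 also called 0, with 18 and 52 at an unadjusted p under 0.05. With constriction and control of the same number paired in a replicate block, edgeR's quasi-likelihood test called 59 of the 97, and its adjusted p for *C5AR2* was 6.92e-13. Over the alternatives it lay between that value and 1. The blocked fit has little left to estimate the spread between libraries from, and *C5AR2* had few reads in LM2. Its small adjusted p and its number of calls are therefore not read as strength of evidence. The labels of LM2 constriction replicate 2 conflict on its number, so the pairing by number is also uncertain. No member was among the 381 genes listed for MDA-MB-231. Genes outside these lists have no values in the tables, and whether the other members differed there was not analysed here.

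Among the regulators inside the cell, *BLNK*, an adaptor of B cell receptor signalling, had 289 and 38 control reads, and *OTUD7A*, a deubiquitinase, had 169 and 46. The control libraries of *BLNK* were over 5-fold apart and those of *OTUD7A* 4.56-fold. Both genes had 0 reads after transit.

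*NLRC3*, a negative regulator of innate sensing, had 44 and 27 control reads. *CARD18*, an inhibitor of caspase 1, had 47 and 5, and *MEFV*, which encodes the inflammasome sensor pyrin, had 27 and 4. All were at 0 in both constriction libraries.

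*MIR590*, the single microRNA gene among the members, had 24 and 41 control reads and 0 after transit. Its 97 bases lie inside the host gene *EIF4H* on the same strand, and libraries were made from polyadenylated RNA, so these reads cannot be told from those of longer transcripts across the locus and do not measure the mature microRNA. The mature sequences from RefSeq (GRCh38.p14) are given to show what the gene encodes, with the seed, bases 2 to 8, in capitals. The 2 arms have different seeds.
hsa-miR-590-5p, chr7:74191213-74191234, plus strand: gAGCUUAUucauaaaagugcag
hsa-miR-590-3p, chr7:74191253-74191273, plus strand: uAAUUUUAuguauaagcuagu

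The remaining 9 members are secreted proteins and enzymes of other kinds, together with *DUOXA1*, the maturation factor of an oxidase. *APOE*, apolipoprotein E, had 172 and 26 control reads, and *AGT*, angiotensinogen, the precursor of angiotensins, had 139 and 3. *TNFAIP6*, which encodes the hyaluronan-binding protein TSG-6, had 72 and 1. These 3 were over 5-fold apart between the control libraries, and *AGT* and *TNFAIP6* were at or under 3 reads in control replicate 2.

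*DUOXA1*, the maturation factor of the hydrogen peroxide-producing oxidase DUOX1, had 56 and 54 control reads, a normalised count of 48.7 ± 8.62 (SD, n = 2), and was at least 14.5-fold lower. It shares 19.0% of its exon bases with *DUOXA2* on the opposite strand, and whether the counting used strand is not given in the sources used here, so part of its reads could be of that gene. *SCG2*, secretogranin 2, had 9 and 33 reads, with replicate 2 the higher, as in *PTGIS*, prostacyclin synthase, with 14 and 24. *C1QTNF3*, a secreted C1q-like protein, and *ACP5*, an acid phosphatase of macrophages and osteoclasts, had between 9 and 25 reads in each control library. *C1QTNF3* lies inside the readthrough gene *C1QTNF3-AMACR* on the same strand and shares 18.3% of its exon bases with it, so its reads are uncertain. *DNASE1L3*, a secreted nuclease, had 9 and 7. All 9 had 0 reads after transit. Over all members, 20 share exon bases with another gene model, 12 of them on the opposite strand alone, and their reads are uncertain to that extent.

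**Figure D5:**
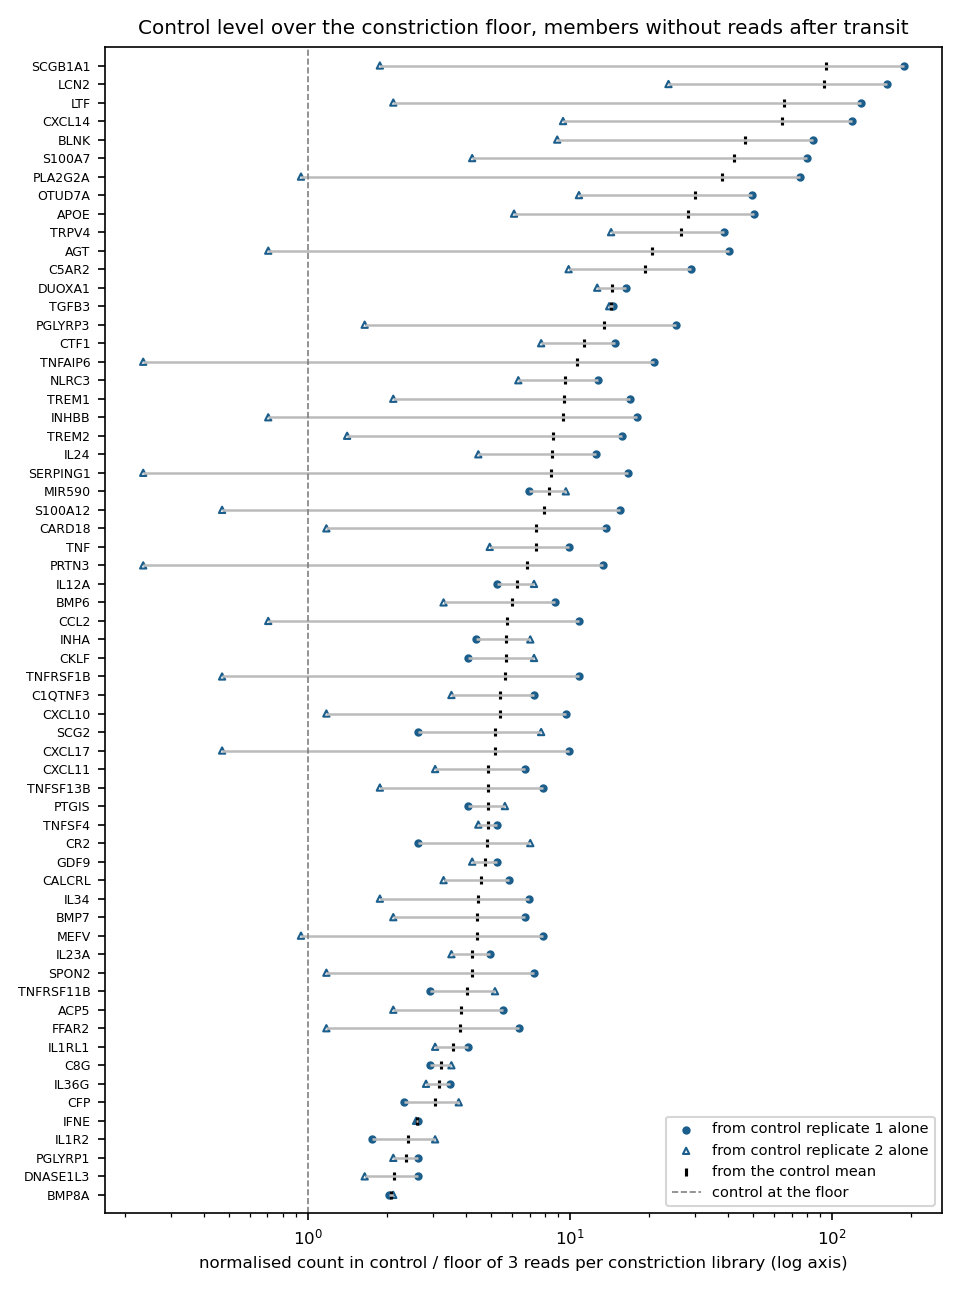
Normalised count in control cells over the mean floor of 3 reads per constriction library, on a log axis, for members without reads after transit that are named in the text, from control replicate 1 alone (filled circles), control replicate 2 alone (open triangles) and the control mean (ticks). *SCGB1A1* leads with a bound of 94.9 from the control mean and *BMP8A* is last with 2.08; triangles left of the dashed line are control levels under the floor.

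Related genes outside the members were taken from 6 lists with 344 genes: receptors of cytokines and chemokines, NF-κB targets, interferon targets, innate sensors and adaptors, complement and antimicrobial proteins. Besides 29 members, 24 of them are listed for MCF-10A, and 23 of the 24 had 0 reads in both constriction libraries, as did 2402 of all 2680 listed genes (89.6%). By edgeR's quasi-likelihood test 0 of the 24 and 0 of the 2680 were called in either direction, with 22 and 2412 at an unadjusted p under 0.05. DESeq2 called 16 of the 24 and 1469 of the 2680, limma 6 and 1015 with a pseudocount of 1 and 0 of both with a pseudocount of 10, and edgeR's legacy estimate 21 and 2329. In 4 of the 24 the control libraries lay over 5-fold apart, and in 338 of the 2680 (12.6%). Nothing is read from these counts about the 24 genes.

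Of the 118 receptors, 15 are listed apart from members. *IL11RA*, the receptor of IL-11, had the highest count, with 221 and 96 control reads, followed by *TNFRSF14* with 97 and 38, *IFNAR2*, a chain of the type I interferon receptor, with 48 and 37, and *CXCR1*, a receptor of IL-8, with 35 and 47. The other 11 were *TNFRSF10C*, *CXCR4*, *PRLR*, *EDAR*, *ACKR1*, *IL7R*, *CD40*, *ACVR1C*, *ACKR2*, *IL12RB2* and *CCR3*, with at most 50 reads in a control library. All 15 had 0 reads after transit.

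Of the 52 interferon targets, 5 are listed apart from members. *SAMD9L* had 176 and 99 control reads, *DHX58*, the RIG-I-like helicase LGP2, 78 and 43, *RSAD2*, the antiviral protein viperin, 25 and 11, and *EPSTI1* 15 and 5, all with 0 after transit. *MX1*, an antiviral GTPase, had 0 and 6 reads in the constriction libraries against 79 and 36 in the control libraries, and was the single gene of the 24 with reads in a constriction library. Of the 55 sensors and adaptors the 3 listed were *CARD17* (72 and 5 control reads), *CARD14* (42 and 16) and *NLRC4* (25 and 35), and of the 45 NF-κB targets it was *TNIP3* (127 and 9). The listed genes of the 41 complement and 34 antimicrobial genes, 6 and 8, were all members.

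Markers of cell types were looked up in the same table. Of 24 leukocyte markers 0 are listed, so the table gives no level for them. Of 11 fibroblast markers *PDGFRB* is listed, with 22 and 22 control reads, and of 8 endothelial markers *PECAM1*, with 71 and 48. Both had 0 reads after transit, as most listed genes did. MCF-10A was cultured as a single line, and these counts are not read as a sign of such cells. Of 22 breast epithelial markers 2 are listed. *KRT16* had 2519 and 3029 reads in the constriction libraries and 7163 and 9641 in the control libraries, and *KRT19* had 5 and 21 in the control libraries alone. The normalised counts of both sum to 3036 and 3135 in the constriction libraries and 7017 and 7629 in the control libraries. Nearly all of each sum is *KRT16*. The normalised count of *KRT19* was 4.89 in control replicate 1 and 16.6 in control replicate 2, the opposite order to that of the secreted defence proteins.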

How the data were processed

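The authors filtered reads with fastp, aligned them with HISAT2 2.0.5 to GRCh38 and counted reads per gene with featureCounts 1.5.0-p3, the deposited counts. Normalised counts (signal) were deposited too, made by the authors with size factors of DESeq2 1.20.0 for 1 cell line at a time, as were FPKM values. The deposited tables list part of the genes, those reported as differentially expressed in the authors' own comparison of each line. Their columns of log2 fold change and p-values, raw and adjusted, hold the authors' comparison and were not used. The authors' table of ontology terms gave the members.

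Library totals were recovered from counts, FPKM and gene lengths. The 4 MCF-10A libraries were fitted with edgeR 4.0.16 (quasi-likelihood, two-sided) with the authors' size factors over all 2680 listed genes, and LM2 likewise. The newer dispersion estimate was used, because the legacy estimate, the default of this version, was planned as the alternative; this was kept after the number of calls under both, 0 and 2329, had been seen. P-values were adjusted (Benjamini-Hochberg) over the 58780 gene models of an annotation that matched all 2680 coordinates, with genes outside the table at a p of 1. The steps were tested on simulated data. Alternatives were TMM factors, DESeq2 1.42.0, limma 3.58.1 with pseudocounts of 1 and 10, a minimum mean normalised count of 10, a replicate block, the legacy estimate, adjustment over the listed genes alone and leaving out each library. The study describes each replicate as an experiment with both constriction and control, which pairs the numbers; deviations of same-numbered MCF-10A libraries from their group means had a correlation of -0.00652 across 2680 genes, and those of LM2, numbered by title, one of 0.171 across 97 genes and 0.221 across the 52 whose normalised counts averaged 10 or more; genes are not independent replicates.

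By rule, counts per library are given for the 20 members with the highest control mean, the 3 with the lowest, those with a read after transit, those over 5-fold apart between control libraries and those listed in another line; promoters are those of the 3 members with the most motif matches, where a tie of 3 members for the last place, which the rule did not foresee, was settled by the control mean. Counts of further members, and the count over 1 FPKM and the ratio of *C4B* without each control library, were added after seeing the data. The values of 1 member are not reported here; it is counted in the totals. Of related lists, called genes were to be named; edgeR's quasi-likelihood test with the newer estimate called none, other tools did, and all listed genes are named, chosen after their values were seen. The grouping by role was also made after the values were seen. Protein sequences of the chemokines were planned and are not shown. Members and lists were chosen with earlier results of these data known.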

Additional observations from a re-analysis of the deposited data

How the results depend on the processing

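The number of MCF-10A genes called, 0 of 2680, was 1469 with DESeq2, 1015 with limma and a pseudocount of 1, 2329 with edgeR's legacy estimate and 2393 when adjusted over the listed genes alone. For the members, the numbers were 41, 15, 53 and 52 in place of 0. Fewer genes in the adjustment account for the last setting by construction; the cause was not tested for the others. With TMM factors, limma with a pseudocount of 10, the minimum mean normalised count, the replicate block (paired numbers) and each library left out, both numbers were 0. With an arm of 1 library, that library is assumed to vary like the others.

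The count of members without reads after transit, 63, was 64 at up to 3 reads, 63 without either constriction library and 31 among those whose normalised counts averaged 10 or more over the 4 libraries, where fewer members are counted by construction. The median bound of 5.74 was 17.2 with a floor of 1 read. For *C5AR2* in LM2, the adjusted p was 6.92e-13 with edgeR and the replicate block, and 1 with DESeq2 and with limma. The blocked value is not read as strength of evidence, since that fit has little left to estimate the spread from. The cause of the difference was not tested. For *C4B*, the log2 fold change was negative in all 6 alternatives, a sign that the choice of the members on this comparison bears on. Its size moved from -5.40 to -2.60 without control replicate 1.

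Depth limits the low members: with a floor of 3 reads per library, the lowest bound was 2.08. The part of unequal cell and RNA amounts in the absence of reads after transit was not tested.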
